A study of Mus musculus with 10 samples.

Results

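The comparison concerned skin Ebf2+ cells and skin Ebf2- PαS cells, which were sorted from the same mouse tissue and profiled by bulk RNA sequencing. It used 6 of the 10 libraries of the study, chosen by their labels: 3 of skin Ebf2+ cells and 3 of skin Ebf2- cells. Both groups were freshly sorted from enzyme-digested dorsal skin of FVB/N mice aged 8 to 12 weeks, from stromal cells negative for CD45, TER119 and CD31, the surface marks of leukocytes, erythroid cells and endothelial cells. The Ebf2- cells were also selected as positive for CD140a and Sca1, a pair of surface proteins that defines PαS mesenchymal cells. That selection is described for the Ebf2- group alone, so it differs between the groups together with Ebf2 status. The labels call both groups mesenchymal stem cells, neither group received a treatment, and the sources used here do not give how Ebf2 was detected in the sort. The design text speaks of 3 mice for the skin cells. The labels number the libraries of each group 1 to 3 without saying whether equal numbers are the same mouse.

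Ebf2 is a DNA-binding transcription factor of the early B cell factor family. It is known from fat cell precursors, where it takes part in the brown fat programme, and from mesenchymal cells of bone. The dermis holds fibroblasts of several layers, the cells around hair follicles and glands, nerve sheath cells, and the mural cells that wrap vessels. Mural cells comprise the smooth muscle of arteries and veins, which contracts through a specialised actin and myosin, and the pericytes of capillaries. CD140a, the receptor PDGFRα, marks fibroblasts of the dermis, and Sca1 marks many stromal progenitors.

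Levels are given as CPM, a gene's counts per 1000000 counts of the library after TMM scaling over the 6 libraries, for libraries 1, 2 and 3 of a group in that order. Totals were 9.83, 13.0 and 9.90 M counts in skin Ebf2+ and 12.5, 14.1 and 11.6 M in skin Ebf2-. Libraries 3 of the groups stood apart from the others. They correlated with each other across genes at r = 0.925 (log2 CPM), against 0.544 to 0.749 for the other pairs of skin Ebf2+ with skin Ebf2- libraries. Reads of Rn45s, a ribosomal RNA gene, made up 12.5%, 8.69% and 0.593% of counts in skin Ebf2+ and 6.34%, 10.5% and 0.170% in skin Ebf2-. Xist, the RNA of the inactive X chromosome, stood at 3206, 3507 and 136 CPM in skin Ebf2+ and at 2266, 2269 and 50.3 CPM in skin Ebf2-. The sum of 4 Y chromosome genes was 0.121, 0 and 10.8 CPM in skin Ebf2+ and 0.152, 6.33 and 30.1 CPM in skin Ebf2-. The labels do not give the sex of the mice. Libraries 3 thus had the lowest Xist and the highest Y sum of their groups. A fit with the library number as a block was set beside the fit without it.

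The genes of the sort were compared first, as a check of the labels. Ebf2 (Entrez 13592, chromosome 14, 67233292 to 67430952, coordinates here and below on GRCm38.p6) was at 218, 330.0 and 161 CPM in skin Ebf2+ and 73.3, 76.5 and 48.4 CPM in skin Ebf2-. Every skin Ebf2+ library lay above every skin Ebf2- library, and reads of the gene were present in all 6. The log2 fold change was 1.84 ± 0.57 (SE) without a block (edgeR adjusted p = 0.99986) and 1.80 ± 0.31 with the replicate block (edgeR adjusted p = 0.287), and neither passed. DESeq2 gave an adjusted p of 0.179 without a block and 0.000289 with it, and the authors' deposited table gives 0.0448 for Ebf2. Pdgfra, which encodes CD140a, measured 906, 892 and 615 CPM in skin Ebf2+ and 885, 1161 and 827 CPM in skin Ebf2-. Ly6a, which encodes Sca1, came to 1152, 1119.7 and 1447 CPM in skin Ebf2+ and 1359, 1530.3 and 2183 CPM in skin Ebf2-. The groups overlapped in both genes, and the CD140a and Sca1 transcripts of the PαS gate were also present in the Ebf2+ cells. Ptprc, which encodes CD45, stood at 0, 0 and 0.886 CPM in skin Ebf2+ and 0.839, 64.5 and 0.242 CPM in skin Ebf2-. Pecam1, which encodes CD31, was at 0, 0 and 21.5 CPM in skin Ebf2+ and 0, 3.09 and 0.0807 CPM in skin Ebf2-. The high values were those of skin Ebf2- 2 for Ptprc and skin Ebf2+ 3 for Pecam1. Among the relatives of Ebf2, Ebf4 measured 7.84, 14.7 and 5.40 CPM in skin Ebf2+ and 2.44, 2.16 and 2.18 CPM in skin Ebf2-, and the groups did not overlap. Ebf1 came to 164, 209 and 70.4 CPM in skin Ebf2+ and 118, 142 and 73.6 CPM in skin Ebf2-. Ebf3 stood at 149, 55.5 and 4.99 CPM in skin Ebf2+ and 60.2, 34.0 and 0.727 CPM in skin Ebf2-. Both overlapped between the groups. In 3 of 3 pairs of equal number 3 of the 4 family members were higher, beside 13.1% of all genes. The family's median log2 difference was 1.33, 1.39 and 1.36 in pairs 1, 2 and 3. Ebf2, the gene of the sort, is counted in both, so neither describes its relatives alone.

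Across all genes few differences passed a test, and their count depended on the fit. Of 14995 genes listed, 13477 passed a filter on low counts. None of the 13477 passed an adjusted p of 0.05 (0 genes, 0.0%) in edgeR's quasi-likelihood fit with no block, where the lowest adjusted p was 0.208. In that fit 343 genes (2.55%) had an unadjusted p below 0.05, 237 with skin Ebf2+ higher and 106 with it lower. Once the library number entered as a block, 8 genes passed (0.0594%), 6 higher (0.0445%) and 2 lower (0.0148%) in skin Ebf2+. By other tools with no block, DESeq2 called 116 genes (0.861%), 88 higher (0.653%) and 28 lower (0.208%), and limma-voom 0 (0.0%). Of 135 genes that the authors' deposited table calls, with skin Ebf2+ higher in 95 and lower in 40, 94 were among the 116. The groups did not overlap for 395 genes that stood higher in skin Ebf2+ (2.93%) and for 505 that stood lower (3.75%). The direction was the same in 3 of 3 pairs for 1762 genes higher (13.1%) and 2152 genes lower (16.0%) in skin Ebf2+. The median log2 fold change of all genes was 0.01, and -0.15 with the block. Rose and fell are used below for the 8 genes that passed with the block, and other genes are given by their values.

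**Figure D1:**
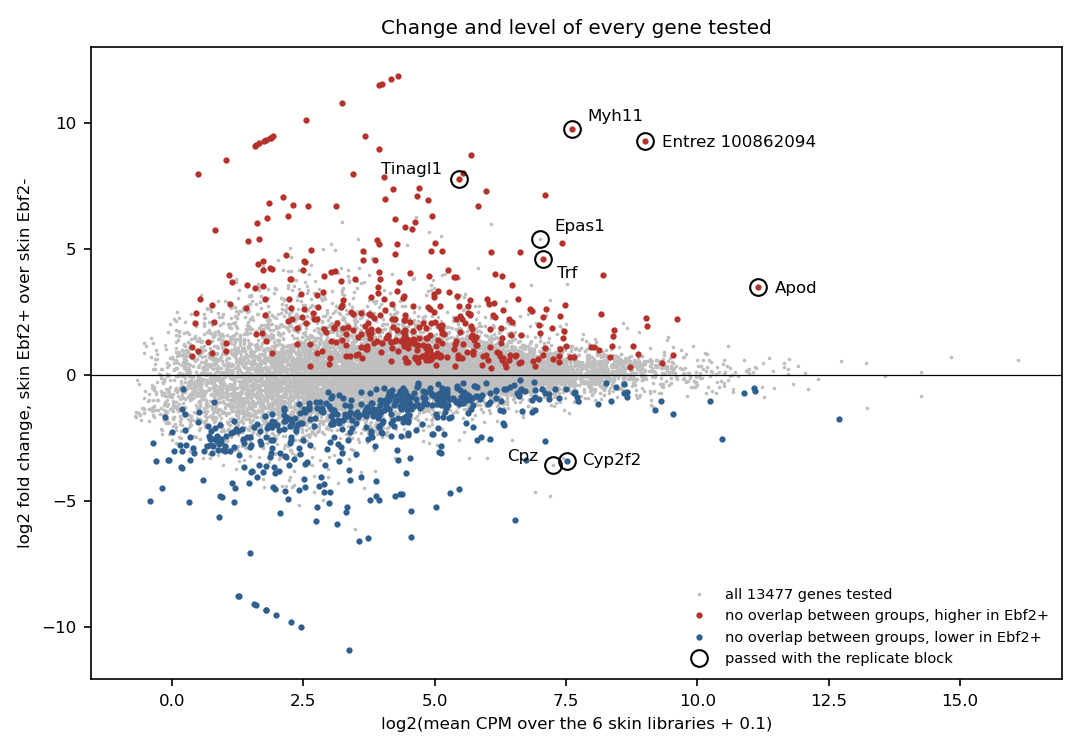
Each point is a gene. The horizontal axis is log2 of the mean CPM over the 6 skin libraries plus 0.1, and the vertical axis is the log2 fold change of skin Ebf2+ over skin Ebf2- from edgeR without a block. Red and blue points are the 395 and 505 genes whose groups did not overlap, and rings mark the 8 genes that passed with the replicate block, 6 above and 2 below the line of no difference.

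The 8 genes that passed with the block were a myosin of smooth muscle, an oxygen-response factor, a basement membrane protein, a lipid carrier, an iron carrier, a secreted peptidase, a detoxifying enzyme and a gene without a name in the files or the reference. Myh11 (Entrez 17880, chromosome 16, 14194527 to 14292188), the heavy chain of smooth muscle myosin, was at 232, 878 and 69.3 CPM in skin Ebf2+ and 0.534, 0.791 and 0 CPM in skin Ebf2-. The lowest skin Ebf2+ library lay far above the highest skin Ebf2- library. With the block it rose by 9.69 ± 0.62 on the log2 scale (SE, edgeR, adjusted p = 0.00533). The unnamed gene, Entrez 100862094, measured 749, 2337 and 7.89 CPM in skin Ebf2+ and 0.381, 4.60 and 0 CPM in skin Ebf2-, high in skin Ebf2+ 1 and 2 and near the Ebf2- level in skin Ebf2+ 3. It rose by 9.73 ± 0.59 (adjusted p = 0.00533). Epas1 (Entrez 13819, chromosome 17, 86753864 to 86833410), which encodes the oxygen-sensitive transcription factor HIF-2α, came to 100.3, 640.2 and 13.9 CPM in skin Ebf2+ and 4.04, 13.9 and 0.242 CPM in skin Ebf2-. The groups met at 13.9 CPM, the level of skin Ebf2+ 3 and of skin Ebf2- 2, while each pair showed the same direction, with log2 differences of 4.33, 5.42 and 3.58. It rose by 5.24 ± 0.43 (adjusted p = 0.0202).

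Tinagl1 (Entrez 94242, chromosome 4, 130165600 to 130175122), a matrix protein of basement membranes, stood at 33.2, 115 and 114 CPM in skin Ebf2+ and 0.305, 0.216 and 0.646 CPM in skin Ebf2-, with at most 0.646 CPM in any Ebf2- library. It rose by 7.69 ± 0.76 (SE; edgeR with the block, adjusted p = 0.0364). Apod (Entrez 11815, chromosome 16, 31296192 to 31314808), apolipoprotein D, a secreted carrier of small lipids, was at 3704, 6381 and 2561 CPM in skin Ebf2+ and 430.1, 419 and 274 CPM in skin Ebf2-. It was abundant in all 6 libraries, so its difference rests on many reads, and it rose by 3.42 ± 0.30 (adjusted p = 0.0247). Trf (Entrez 22041, chromosome 9, 103208876 to 103230286), which encodes the iron carrier transferrin, measured 45.1, 122 and 598 CPM in skin Ebf2+ and 4.04, 3.81 and 23.8 CPM in skin Ebf2-. Library 3 was the highest of each group, and it rose by 4.39 ± 0.45 (adjusted p = 0.0364). Lower in skin Ebf2+ were Cyp2f2 (Entrez 13107, chromosome 7, 27119955 to 27133660), a cytochrome P450 known for the oxidation of foreign compounds, and Cpz (Entrez 242939, chromosome 5, 35502218 to 35525626), a secreted carboxypeptidase that binds Wnt proteins. Cyp2f2 came to 8.20, 22.0 and 64.0 CPM in skin Ebf2+ and 176, 278 and 553 CPM in skin Ebf2-. It fell by 3.72 ± 0.38 on the log2 scale (adjusted p = 0.0364). Cpz stood at 13.9, 3.63 and 53.1 CPM in skin Ebf2+ and 108, 43.4 and 687 CPM in skin Ebf2-. It fell by 3.41 ± 0.35 (adjusted p = 0.0364). The groups overlapped for Cpz, since skin Ebf2+ 3 lay above skin Ebf2- 2, and the direction appeared within pairs. With a pair of equal number left out of the block fit, Entrez 100862094 passed in 3 of 3 such fits and Myh11 in 2 of 3 (adjusted p = 0.0741 without pair 2). The remaining 6 passed in none (adjusted p = 0.055 to 0.669) and kept their sign.

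**Figure D2:**
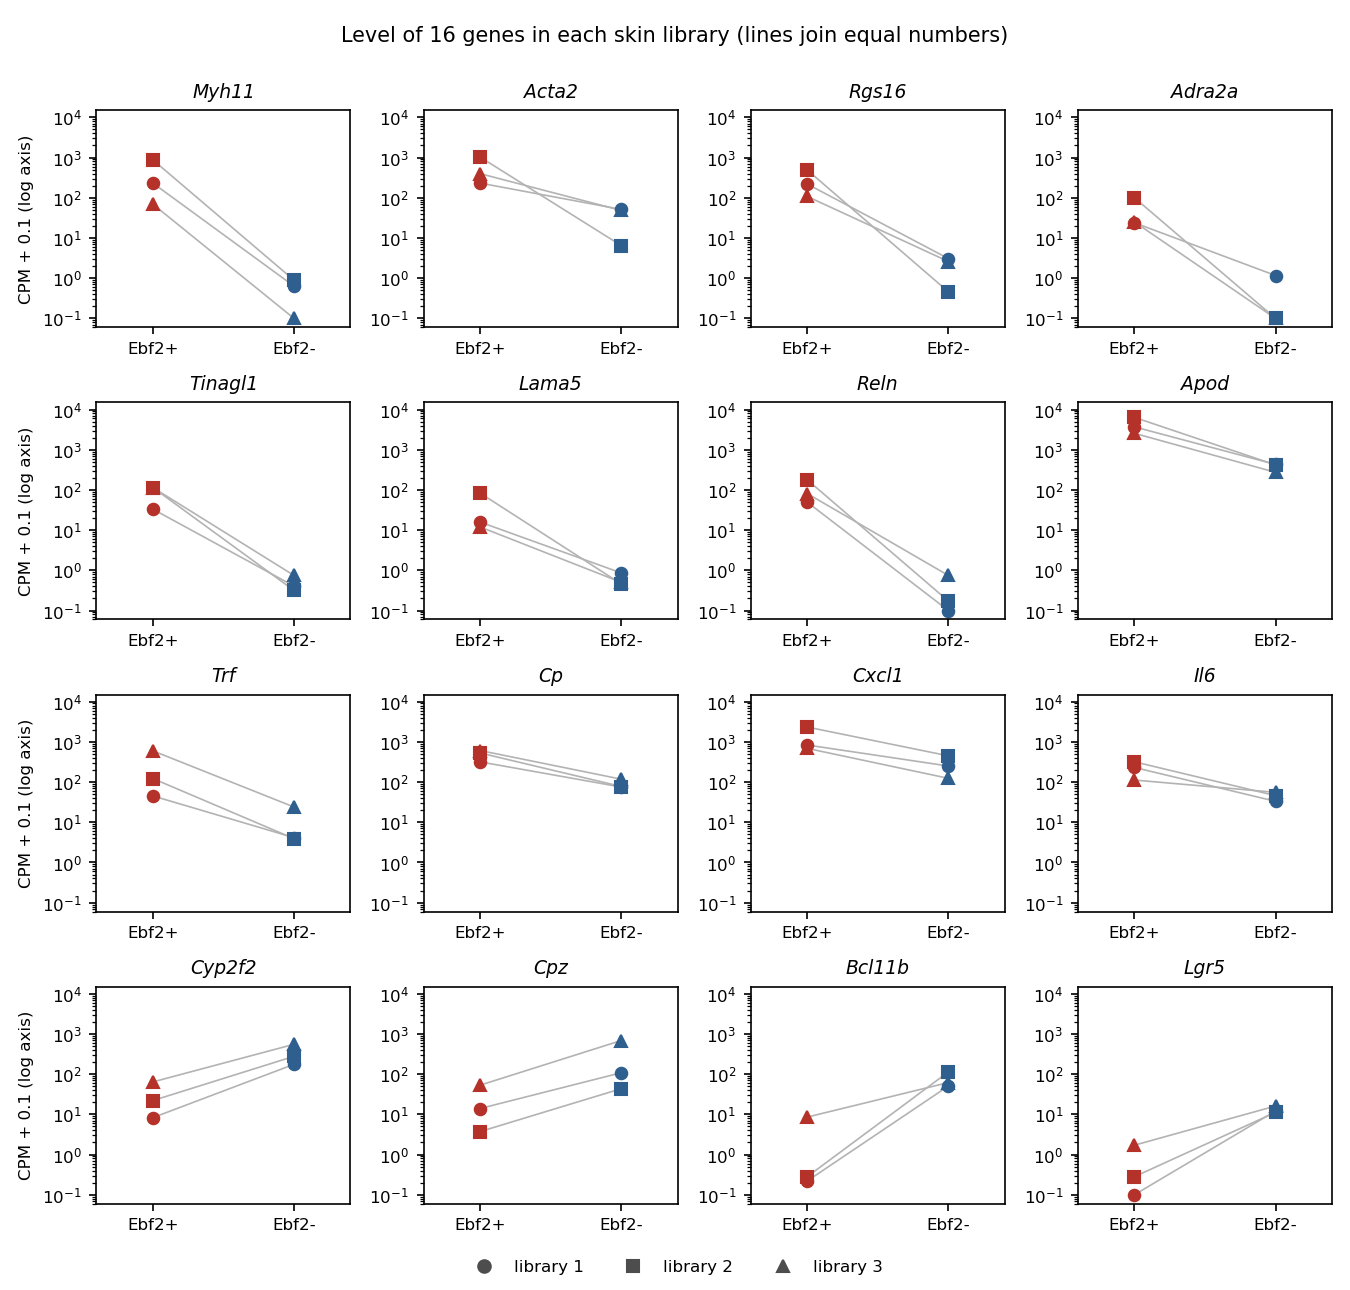
Level of 16 genes in each library, as CPM plus 0.1 on a log axis, with skin Ebf2+ left and skin Ebf2- right. The marker shape gives the library number and grey lines join equal numbers. The lines of Myh11, Tinagl1 and Reln slope steeply down to the Ebf2- side, those of Apod and Cp run close together, and those of Cyp2f2, Cpz, Bcl11b and Lgr5 slope up.

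Genes of the contractile apparatus stood higher in skin Ebf2+. Of 23 smooth muscle genes listed 20 were tested. Of these, 19 had a positive log2 fold change (50.4% of all genes did), 8 did not overlap and stood higher (2.93% of all genes), and none did so lower. The list's median log2 fold change was 2.76, beside 0.01 for all genes, and 1.67 without skin Ebf2+ 2. Only Myh11 passed with the block, where 0.0445% of all genes passed higher. DESeq2 without a block called 7 higher, beside 0.653% of all genes. The list and the other lists below were drawn up with earlier results of these data known. Acta2, smooth muscle actin, was at 232, 1032 and 399 CPM in skin Ebf2+ and 51.4, 6.40 and 48.4 CPM in skin Ebf2-. Tagln, the actin-binding protein transgelin, measured 86.1, 389.6 and 92.5 CPM in skin Ebf2+ and 9.61, 1.22 and 8.64 CPM in skin Ebf2-. In both genes skin Ebf2+ 2 was the highest of all libraries and skin Ebf2- 2 the lowest. Cnn1, calponin, came to 5.43, 111 and 22.6 CPM in skin Ebf2+ and 1.52, 0.719 and 0.242 CPM in skin Ebf2-, highest in skin Ebf2+ 2. Myl9, the regulatory light chain of smooth muscle myosin, stood at 199, 445 and 199 CPM in skin Ebf2+ and 74.7, 40.4 and 51.0 CPM in skin Ebf2-. Des, the intermediate filament desmin, was at 22.1, 178 and 30.9 CPM in skin Ebf2+ and 1.68, 1.29 and 12.6 CPM in skin Ebf2-. None of these groups overlapped. Mylk, the kinase that switches on the light chain, measured 116, 858 and 39.2 CPM in skin Ebf2+ and 69.0, 5.68 and 7.83 CPM in skin Ebf2-. Tpm2, a tropomyosin, came to 18.2, 561 and 52.8 CPM in skin Ebf2+ and 40.7, 5.82 and 7.27 CPM in skin Ebf2-. These overlapped, because skin Ebf2- 1 held more of each than the lowest skin Ebf2+ library. Myocd, the co-activator of smooth muscle genes, did not pass the filter on low counts. It had 5.07, 23.4 and 0.644 CPM in skin Ebf2+ and 0.229, 0 and 0 CPM in skin Ebf2-. Summed over the list, levels were 2097, 7629 and 1463 CPM in skin Ebf2+ and 955, 637 and 530.0 CPM in skin Ebf2-. In bulk RNA, more cells of a type and more RNA of its genes per cell cannot be told apart.

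Pericyte markers stood higher in part. Of 18 listed 16 were tested, and 13 of them had a positive log2 fold change (50.4% of all genes did). In 8 the groups did not overlap and skin Ebf2+ stood higher (2.93% of all genes), and the median log2 fold change was 2.15, or 1.38 without skin Ebf2+ 2. Rgs4, a regulator that switches off G protein signals, stood at 58.4, 259 and 57.3 CPM in skin Ebf2+ and 0.152, 0.0719 and 2.18 CPM in skin Ebf2-, and its relative Rgs5 at 11.6, 139.9 and 2.74 CPM in skin Ebf2+ and 0, 0.863 and 0 CPM in skin Ebf2-. Both separated the groups, and skin Ebf2+ 3 was the lowest of its group. Notch3, the Notch receptor of mural cells, was at 199.7, 777 and 24.7 CPM in skin Ebf2+ and 1.07, 23.1 and 2.42 CPM in skin Ebf2-. Here skin Ebf2+ 3 lay close to skin Ebf2- 2. Mcam, an adhesion protein of vessel walls, measured 46.2, 164 and 26.1 CPM in skin Ebf2+ and 10.1, 2.95 and 2.83 CPM in skin Ebf2-. Cspg4, the proteoglycan NG2, came to 71.6, 207 and 66.1 CPM in skin Ebf2+ and 47.0, 7.41 and 12.5 CPM in skin Ebf2-. Vtn, the adhesive protein vitronectin, stood at 51.4, 108 and 98.8 CPM in skin Ebf2+ and 8.23, 13.2 and 26.8 CPM in skin Ebf2-. Each of these 3 had its lowest skin Ebf2+ library above every skin Ebf2- library. Gucy1a1, a subunit of the receptor for nitric oxide, was at 93.3, 359.7 and 57.6 CPM in skin Ebf2+ and 7.85, 39.4 and 16.7 CPM in skin Ebf2-. Other markers of the same cells did not separate the groups. Pdgfrb, the PDGF receptor of pericytes, measured 318, 498 and 315 CPM in skin Ebf2+ and 215, 220.3 and 443 CPM in skin Ebf2-. Abcc9, the regulatory subunit of a potassium channel, came to 282, 453 and 60.8 CPM in skin Ebf2+ and 79.2, 57.6 and 70.7 CPM in skin Ebf2-. Kcnj8, the pore of that channel, stood at 16.04, 26.5 and 40.8 CPM in skin Ebf2+ and 59.5, 18.1 and 149 CPM in skin Ebf2-. Abcc9 and Kcnj8 encode partners in a channel, and their fold changes had opposite signs, at 1.94 ± 0.74 and -1.44 ± 0.81 (log2, SE).

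Several receptors and channels of vessel walls stood apart between the groups. Adra2a, an adrenaline receptor, was at 23.9, 101 and 25.1 CPM in skin Ebf2+ and 1.07, 0 and 0 CPM in skin Ebf2-. Rgs16, another regulator of G protein signals, measured 220.0, 492 and 108 CPM in skin Ebf2+ and 2.97, 0.359 and 2.50 CPM in skin Ebf2-. Htr7, a serotonin receptor, had 2.77, 11.7 and 3.79 CPM in skin Ebf2+ and 0 reads in skin Ebf2-, at least 80.0-fold higher. That bound was computed against a floor of 3 counts over the Ebf2- group. In both receptors skin Ebf2+ 2 was the highest library. Of 52 potassium, calcium and TRP channel genes listed 35 were tested, of which 25 had a positive log2 fold change (50.4% of all genes). Without overlap, 8 stood higher and 3 lower, beside 2.93% and 3.75% of all genes. Their median was 0.78, and the medians within pairs were 0.76, 0.52 and 0.61. DESeq2 without a block called 3 higher, beside 0.653% of all genes. Trpc6, a calcium-permeable channel gated by lipid signals, had 2.29, 15.2 and 3.95 CPM in skin Ebf2+ and 0 reads in skin Ebf2-, at least 94.1-fold higher. Kcnd3, a potassium channel, had 10.3, 3.90 and 3.30 CPM in skin Ebf2+ and 0 reads in skin Ebf2-, at least 76.4-fold higher. Cacna1c, the main calcium channel of smooth muscle, came to 103, 289.5 and 2.09 CPM in skin Ebf2+ and 2.36, 3.09 and 0.807 CPM in skin Ebf2-, so skin Ebf2+ 1 and 2 were high and skin Ebf2+ 3 lay within the Ebf2- range. Ano1, a calcium-activated chloride channel, stood at 90.7, 223 and 75.3 CPM in skin Ebf2+ and 0.610, 0.288 and 12.3 CPM in skin Ebf2-. Pde5a, which breaks down cyclic GMP, was at 61.7, 145 and 8.30 CPM in skin Ebf2+ and 7.47, 2.37 and 2.02 CPM in skin Ebf2-. In the other direction, Cacna1g, a low-voltage calcium channel, measured 10.0, 11.3 and 8.78 CPM in skin Ebf2+ and 59.9, 75.2 and 18.8 CPM in skin Ebf2-. Kcnma1, the large-conductance potassium channel of smooth muscle, came to 0.241, 0.182 and 0.644 CPM in skin Ebf2+ and 0.839, 13.4 and 1.21 CPM in skin Ebf2-. Both stood lower without overlap, unlike most contractile genes.

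Promoters were searched for a pair of motifs that bear on these genes. The CArG box, bound by serum response factor and known from smooth muscle genes, was searched as CC, then 6 bases of A or T, then GG. The motif of the EBF family was searched as TCCCNNGGGA. Both were searched on both strands in RefSeq promoters of GRCm38.p6, each 300 bases, from 250 before to 50 after a gene's first listed start. The CArG box was in 425 of 27025 promoters of the reference (1.57%) and in 139 of 10158 promoters of tested genes (1.37%). It was in 11 of 295 promoters of genes that stood higher without overlap (3.73%) and in 1 of 381 of those that stood lower (0.262%). Among the lists it was in 1 of 15 smooth muscle promoters (6.67%), that of Myl9, and in 0 of 13 pericyte promoters. The lists had 20 and 16 genes tested, and those without a promoter in the reference were not searched. Myh11 and Tagln were among the genes not searched. The EBF motif was in 247 of 27025 promoters (0.914%), in 104 of 10158 of tested genes (1.02%), in 5 of 295 of the higher genes (1.69%) and in 3 of 381 of the lower ones (0.787%). These shares are descriptions of letters in a window, with no test, and a match is not a bound site. The sequences below show the matches in capitals, 5′ to 3′ on the gene's strand. They were chosen after the matches were known, as 4 holders with a muscle, cytoskeletal or channel product and 1 gene that passed with the block.
Myl9 promoter, chr2:156775214-156775513, plus strand, CArG box: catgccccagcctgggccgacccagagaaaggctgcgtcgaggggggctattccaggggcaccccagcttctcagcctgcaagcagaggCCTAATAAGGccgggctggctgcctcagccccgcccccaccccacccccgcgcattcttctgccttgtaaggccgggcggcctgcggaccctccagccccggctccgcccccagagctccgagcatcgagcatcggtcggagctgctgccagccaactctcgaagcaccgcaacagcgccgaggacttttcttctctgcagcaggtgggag
Lmcd1 promoter, chr6:112273508-112273807, plus strand, CArG box: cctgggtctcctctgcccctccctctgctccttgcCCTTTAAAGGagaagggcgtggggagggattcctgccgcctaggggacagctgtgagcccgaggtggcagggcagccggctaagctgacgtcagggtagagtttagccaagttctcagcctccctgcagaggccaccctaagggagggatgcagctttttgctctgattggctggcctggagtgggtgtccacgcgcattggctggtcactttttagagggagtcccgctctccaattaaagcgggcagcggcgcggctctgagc
Trpc6 promoter, chr9:8543892-8544191, plus strand, CArG box: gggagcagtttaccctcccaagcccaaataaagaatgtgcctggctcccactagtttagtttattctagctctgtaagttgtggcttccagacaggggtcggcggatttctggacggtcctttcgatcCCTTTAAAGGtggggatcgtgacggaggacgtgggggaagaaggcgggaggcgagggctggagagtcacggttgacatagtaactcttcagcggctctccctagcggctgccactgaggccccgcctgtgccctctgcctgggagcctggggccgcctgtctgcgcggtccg
Vcl promoter, chr14:20929148-20929447, plus strand, CArG box first and EBF motif second: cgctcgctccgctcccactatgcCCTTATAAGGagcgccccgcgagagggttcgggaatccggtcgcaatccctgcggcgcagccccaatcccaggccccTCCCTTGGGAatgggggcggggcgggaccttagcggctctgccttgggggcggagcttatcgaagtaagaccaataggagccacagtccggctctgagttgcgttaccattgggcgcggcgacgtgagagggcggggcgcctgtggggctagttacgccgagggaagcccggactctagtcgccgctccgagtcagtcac
Tinagl1 promoter, chr4:130175073-130175372, minus strand, EBF motif: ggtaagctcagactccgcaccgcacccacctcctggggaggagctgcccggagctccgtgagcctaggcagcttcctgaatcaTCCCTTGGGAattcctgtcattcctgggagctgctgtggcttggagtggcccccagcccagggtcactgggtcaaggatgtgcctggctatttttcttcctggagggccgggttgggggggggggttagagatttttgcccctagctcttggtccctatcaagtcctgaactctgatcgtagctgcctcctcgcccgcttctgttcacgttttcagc

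The CArG box began 161 bases before the start in Myl9, 215 in Lmcd1, 122 in Trpc6 and 227 in Vcl. The EBF motif began 150 bases before the start in Vcl and 167 in Tinagl1, and it read TCCCTTGGGA in both. Lmcd1, a cofactor that restrains transcription in muscle, stood at 26.4, 68.2 and 14.7 CPM in skin Ebf2+ and 1.60, 0.575 and 1.78 CPM in skin Ebf2-. Its groups lay far apart, with a log2 fold change of 4.78 ± 1.05 (SE; unadjusted p = 0.00124, edgeR without a block). Vcl, vinculin, which links actin to adhesion sites, was at 146, 262 and 145 CPM in skin Ebf2+ and 96.8, 63.7 and 104 CPM in skin Ebf2-, a small separation. Ldb3, a protein of the muscle Z line whose promoter held both motifs, measured 14.2, 1.27 and 2.09 CPM in skin Ebf2+ and 0, 0 and 0.242 CPM in skin Ebf2-. Rergl, a small GTPase relative with a CArG box 49 bases before its start, had 3.497, 15.4 and 2.42 CPM in skin Ebf2+ and 0 reads in skin Ebf2-. Among genes that stood lower, Chl1, a neural adhesion molecule with an EBF motif 91 bases before its start, came to 8.44, 11.5 and 10.7 CPM in skin Ebf2+ and 91.0, 43.9 and 22.5 CPM in skin Ebf2-.

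Of 29 basement membrane genes tested, 22 had a positive log2 fold change (50.4% of all genes). Without overlap 5 stood higher and 2 lower, beside 2.93% and 3.75% of all genes, and in 3 of 3 pairs 10 were higher and 2 lower, beside 13.1% and 16.0%. The median was 0.29, or 0.60 without skin Ebf2- 3. The only member that passed with the block was Tinagl1, where 0.0445% of all genes passed higher. Lama5, a laminin chain of vessel and epithelial basement membranes, stood at 15.8, 83.6 and 11.9 CPM in skin Ebf2+ and 0.762, 0.359 and 0.404 CPM in skin Ebf2-, with a log2 fold change of 6.16 ± 1.21 (SE). Col4a5, a chain of network-forming type IV collagen, was at 76.6, 126 and 47.4 CPM in skin Ebf2+ and 15.4, 10.6 and 19.1 CPM in skin Ebf2-. Lama4, the laminin chain of vessel walls, went slightly the other way, at 287, 231 and 302 CPM in skin Ebf2+ and 341, 358 and 319 CPM in skin Ebf2-. The other lower member was Frem1, a matrix protein of the junction of epidermis and dermis, at 4.46, 2.18 and 6.61 CPM in skin Ebf2+ and 20.0, 9.71 and 9.61 CPM in skin Ebf2-. Receptors of laminin were read beside them. Itga7, a laminin receptor of muscle, measured 7.12, 144 and 26.4 CPM in skin Ebf2+ and 0.457, 3.45 and 2.02 CPM in skin Ebf2-. Itga1, a receptor for collagen and laminin, came to 18.6, 142 and 21.3 CPM in skin Ebf2+ and 7.32, 4.03 and 7.03 CPM in skin Ebf2-. Both were highest in skin Ebf2+ 2 and separated the groups. Of 19 integrin genes tested, 2 stood higher and 0 lower without overlap, beside 2.93% and 3.75% of all genes. The log2 fold change was negative in 12 and positive in 7 (50.4% of all genes were positive), with a median of -0.34. Vwa1, a matrix protein bound to perlecan, stood at 28.7, 142 and 318 CPM in skin Ebf2+ and 7.01, 11.9 and 22.4 CPM in skin Ebf2-. Matn2, matrilin-2, was at 105, 379 and 451 CPM in skin Ebf2+ and 51.6, 30.1 and 56.6 CPM in skin Ebf2-. These were highest in skin Ebf2+ 3 and had no overlap.

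Among 30 collagen genes tested the median was -0.02, with 14 positive, and 3 stood higher and 1 lower without overlap (2.93% and 3.75% of all genes). Col28a1, a collagen known from peripheral nerve, measured 4.82, 25.5 and 34.2 CPM in skin Ebf2+ and 0.0762, 0.0719 and 0.0807 CPM in skin Ebf2-. Col8a1, a short-chain collagen of vessel walls, came to 87.4, 113 and 203 CPM in skin Ebf2+ and 21.3, 26.5 and 19.8 CPM in skin Ebf2-. Both stood higher in every skin Ebf2+ library. Col1a1, the main fibrillar collagen of the dermis, stood at 2347, 3373 and 3518 CPM in skin Ebf2+ and 7099, 3612 and 20229 CPM in skin Ebf2-. For Col1a1 the group ranges came near each other, and skin Ebf2- 3 was far above the rest. The summed level of the collagen list was 22214, 24865 and 48401 CPM in skin Ebf2+ and 32427, 23709.6 and 119621 CPM in skin Ebf2-. Of 27 elastic fibre and microfibril genes, 21 had a negative log2 fold change, 3 stood lower and 1 higher without overlap (3.75% and 2.93% of all genes), and 9 were lower in 3 of 3 pairs against 1 higher (16.0% and 13.1%). Their median was -0.44, and 0.11 without skin Ebf2- 3. Mfap4, a microfibril protein, was at 764, 131 and 359 CPM in skin Ebf2+ and 3043, 1697 and 2507 CPM in skin Ebf2-. Ltbp2, which binds fibrillin, measured 0.121, 23.1 and 2.74 CPM in skin Ebf2+ and 53.7, 34.6 and 94.7 CPM in skin Ebf2-. Both stood lower in every skin Ebf2+ library. Loxl4, a lysyl oxidase that cross-links matrix, came to 65.8, 6.53 and 54.5 CPM in skin Ebf2+ and 103, 74.8 and 169 CPM in skin Ebf2-. Lrrc15, a membrane protein known from matrix-producing fibroblasts, stood at 0.724, 0.182 and 9.02 CPM in skin Ebf2+ and 427, 17.8 and 102 CPM in skin Ebf2-, where every skin Ebf2- library exceeded every skin Ebf2+ library.

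Iron and copper genes were mixed. Of 18 iron genes tested 10 had a positive log2 fold change and the median was 0.12, near that of all genes, with -0.07 without skin Ebf2+ 1 and -0.19 with the block. In 3 of 3 pairs 4 were higher and 5 lower, beside 13.1% and 16.0% of all genes. Without overlap 4 stood higher, Trf among them, and 1 lower, beside 2.93% and 3.75%. Cp, ceruloplasmin, a copper enzyme that oxidises iron for loading onto transferrin, measured 318, 529 and 609 CPM in skin Ebf2+ and 75.1, 77.3 and 118 CPM in skin Ebf2-. It was even within each group, with log2 differences of 2.07, 2.76 and 2.36 in pairs 1, 2 and 3, and an adjusted p of 0.0848 with the block. Steap2, a reductase of iron and copper, came to 60.3, 155 and 14.5 CPM in skin Ebf2+ and 11.3, 7.62 and 7.35 CPM in skin Ebf2-, and its relative Steap4 at 411, 728 and 443 CPM in skin Ebf2+ and 104, 159 and 197 CPM in skin Ebf2-. The lower member was Slc39a8, a metal importer, at 1.09, 1.91 and 4.03 CPM in skin Ebf2+ and 6.10, 4.82 and 7.67 CPM in skin Ebf2-. Epas1 had passed with the block, while 31 genes of the response to low oxygen had a median of -0.07. Of these, 0 stood higher and 1 lower without overlap (2.93% and 3.75% of all genes). That member, the stress-response gene Ndrg1, stood at 108, 69.2 and 142 CPM in skin Ebf2+ and 143, 142 and 189 CPM in skin Ebf2-, apart by a narrow margin.

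Enzymes of drug and steroid metabolism showed no common direction. Of 34 tested, 17 had a positive log2 fold change, and 1 stood higher and 3 lower without overlap (2.93% and 3.75% of all genes). In 3 of 3 pairs 8 were higher and 6 lower (13.1% and 16.0%). Cyp2f2 was the only member to pass with the block, where 0.0148% of all genes passed lower. Aldh3a1, an aldehyde dehydrogenase known from barrier tissues, was at 0, 0 and 4.99 CPM in skin Ebf2+ and 38.2, 15.1 and 137 CPM in skin Ebf2-. Ahrr, the repressor of the aryl hydrocarbon receptor that controls such enzymes, measured 0, 0 and 1.29 CPM in skin Ebf2+ and 7.24, 7.84 and 30.8 CPM in skin Ebf2-. Cyp26b1, which degrades retinoic acid, came to 55.0, 32.9 and 8.22 CPM in skin Ebf2+ and 363, 538 and 46.6 CPM in skin Ebf2-, so the high skin Ebf2+ library overlapped with skin Ebf2- 3. Cyp2s1, another cytochrome P450, ran the other way, at 8.92, 2.72 and 39.9 CPM in skin Ebf2+ and 2.13, 0.503 and 1.29 CPM in skin Ebf2-. Aldh3a1 and Ahrr had no read in skin Ebf2+ 1 and 2.

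Genes of Wnt signalling leaned lower. Of 52 tested, 35 had a negative log2 fold change, 7 stood lower and 0 higher without overlap (3.75% and 2.93% of all genes), and 16 were lower in 3 of 3 pairs against 2 higher (16.0% and 13.1%). The median was -0.30, or -0.68 without skin Ebf2+ 3, and -0.91, -0.56 and -0.18 within pairs 1, 2 and 3. Lgr5, a receptor for R-spondins known from hair follicle and gut stem cells, stood at 0, 0.182 and 1.61 CPM in skin Ebf2+ and 12.0, 11.1 and 16.1 CPM in skin Ebf2-. Rspo1, an R-spondin, was at 0.482, 33.9 and 26.7 CPM in skin Ebf2+ and 97.9, 51.0 and 106 CPM in skin Ebf2-. Dkk2, a secreted Wnt antagonist, measured 4.46, 2.00 and 12.6 CPM in skin Ebf2+ and 55.0, 16.5 and 32.2 CPM in skin Ebf2-. All 3 stood lower in every skin Ebf2+ library. Apcdd1, a membrane Wnt inhibitor of the papillary dermis, came to 44.98, 18.1 and 51.7 CPM in skin Ebf2+ and 225, 157 and 323 CPM in skin Ebf2-, with a log2 fold change of -2.62 ± 0.64 (SE) and log2 differences of -2.30, -3.05 and -2.62 in the pairs. The genes given here were named because they stood lower without overlap, and they include activators and antagonists of the pathway. A positive log2 fold change was found in 17 of the 52.

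Genes of the TGF-beta pathway leaned lower as well. Of 27 tested, 19 had a negative log2 fold change, and 9 were lower in 3 of 3 pairs against 2 higher (16.0% and 13.1% of all genes). Without overlap 3 stood lower and 0 higher (3.75% and 2.93%). The median was -0.41, and between -0.43 and -0.25 with a library left out. Inhbb, an activin subunit, measured 5.43, 0 and 7.09 CPM in skin Ebf2+ and 35.7, 47.2 and 41.9 CPM in skin Ebf2-. Smad2, which carries the signal of TGF-beta and activin receptors to the nucleus, was at 24.6, 11.9 and 44.5 CPM in skin Ebf2+ and 55.5, 67.6 and 60.0 CPM in skin Ebf2-. Of 38 BMP pathway genes, 21 were positive and 2 stood apart each way, near the shares of all genes, with a median of 0.26, or 0.06 without skin Ebf2+ 2. Grem1, a secreted BMP antagonist, had 0 reads in skin Ebf2+ and 14.6, 17.8 and 29.2 CPM in skin Ebf2-. Against a floor of 3 counts over the Ebf2+ group it was at least 217-fold lower. Id4, a target of BMP signals, stood at 14.5, 29.4 and 24.6 CPM in skin Ebf2+ and 6.33, 1.80 and 5.25 CPM in skin Ebf2-. Bmp5, a ligand, was at 42.3, 42.5 and 28.6 CPM in skin Ebf2+ and 15.9, 20.6 and 13.6 CPM in skin Ebf2-. Both were higher in every skin Ebf2+ library. Of 21 FGF pathway genes, 2 stood higher and 0 lower without overlap (2.93% and 3.75% of all genes). The list's median was 0.12, and -0.95 with the block. Both higher members are induced by receptor signals. Etv4, a transcription factor, measured 14.6, 15.6 and 5.08 CPM in skin Ebf2+ and 0.152, 0 and 0.161 CPM in skin Ebf2-. Spry4, a feedback inhibitor, came to 138, 165 and 36.0 CPM in skin Ebf2+ and 17.2, 16.5 and 8.96 CPM in skin Ebf2-. Pdgfa, the ligand of CD140a, stood at 4.94, 65.3 and 13.5 CPM in skin Ebf2+ and 0.457, 1.29 and 1.78 CPM in skin Ebf2-, highest in skin Ebf2+ 2. In the IGF axis, 2 of 17 genes stood lower and 0 higher without overlap (3.75% and 2.93% of all genes), and 11 had a positive log2 fold change. The lower members were the regulators Pappa2, a protease, and Igfbp2, a binding protein. Pappa2 measured 0.241, 1.18 and 3.06 CPM in skin Ebf2+ and 15.3, 93.7 and 11.3 CPM in skin Ebf2-. Igfbp2 came to 0, 0 and 10.7 CPM in skin Ebf2+ and 67.6, 11.9 and 174 CPM in skin Ebf2-. Hhip, an inhibitor of Hedgehog ligands, stood at 65.8, 54.5 and 124 CPM in skin Ebf2+ and 14.2, 11.1 and 44.6 CPM in skin Ebf2-. Nr2f2, the nuclear receptor COUP-TFII known from veins, was at 107, 284 and 48.1 CPM in skin Ebf2+ and 6.10, 17.4 and 5.41 CPM in skin Ebf2-, with an adjusted p of 0.0698 with the block.

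Of 52 axon guidance genes tested, 24 had a positive log2 fold change, and 3 stood higher and 6 lower without overlap, beside 2.93% and 3.75% of all genes. Reln, a large secreted guidance protein, measured 49.7, 179 and 81.1 CPM in skin Ebf2+ and 0, 0.0719 and 0.646 CPM in skin Ebf2-, with an adjusted p of 0.0848 with the block. Plxnc1, a semaphorin receptor, came to 7.12, 53.6 and 10.8 CPM in skin Ebf2+ and 0.381, 1.94 and 0 CPM in skin Ebf2-. Epha4, an ephrin receptor, stood at 78.0, 59.5 and 21.8 CPM in skin Ebf2+ and 17.3, 18.9 and 13.9 CPM in skin Ebf2-. These 3 made up the higher members. The lower ones included receptors and adhesion proteins of axons. Robo2, the receptor of Slit proteins, was at 0, 0 and 0.806 CPM in skin Ebf2+ and 45.8, 10.4 and 22.1 CPM in skin Ebf2-. Plxna4, another semaphorin receptor, measured 0, 0.454 and 2.01 CPM in skin Ebf2+ and 5.03, 57.7 and 15.6 CPM in skin Ebf2-. Ntng1, a netrin relative, came to 0.121, 8.80 and 1.21 CPM in skin Ebf2+ and 64.9, 17.6 and 24.8 CPM in skin Ebf2-. In Robo2 and Plxna4 skin Ebf2+ 1 had no read. Ncam1, the neural cell adhesion molecule, stood at 3.497, 4.81 and 13.0 CPM in skin Ebf2+ and 90.7, 51.6 and 38.2 CPM in skin Ebf2-. Genes of nerve sheath cells were mixed. Of 15 Schwann cell and melanocyte genes tested, 1 stood higher and 3 lower without overlap (2.93% and 3.75% of all genes). Cdh19, a cadherin of Schwann cell precursors, was at 1.81, 16.8 and 17.2 CPM in skin Ebf2+ and 0, 0 and 1.13 CPM in skin Ebf2-. Sox8, a neural crest transcription factor, measured 2.65, 79.9 and 63.0 CPM in skin Ebf2+ and 0.305, 0 and 1.86 CPM in skin Ebf2-. For Cdh19 and Sox8, skin Ebf2+ 2 and 3 were high and skin Ebf2+ 1 was close to the Ebf2- libraries. Both ran against the 3 members of the list that stood lower, and Sox8 was chosen after its values were seen.

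Genes with the largest fitted fold changes were ranked among those without overlap, 15 each way. Those on the higher side and not given above include Sorbs2 and Adap2. Genes without a read in skin Ebf2- are given further below. Sorbs2, an adaptor of actin and cell junctions in muscle, was at 8.20, 247 and 20.9 CPM in skin Ebf2+ and 0.229, 0.791 and 0 CPM in skin Ebf2-. Adap2, a regulator of the small GTPase ARF6, measured 15.9, 71.8 and 3.87 CPM in skin Ebf2+ and 0.0762, 0 and 0.0807 CPM in skin Ebf2-. In both, skin Ebf2+ 2 was far above the other libraries, and the log2 fold changes were 8.02 ± 1.76 and 8.94 ± 1.70 (SE). Of the lower side, 4 further genes are given. Nrn1, neuritin, a surface protein of neurons, was at 0.482, 0 and 0.806 CPM in skin Ebf2+ and 23.2, 20.5 and 14.0 CPM in skin Ebf2-, even within each group. Camk2b, a calcium-dependent kinase, came to 0, 0 and 0.967 CPM in skin Ebf2+ and 11.3, 11.7 and 15.9 CPM in skin Ebf2-. Pla2g5, a secreted phospholipase, measured 0, 0 and 0.644 CPM in skin Ebf2+ and 3.74, 4.10 and 61.1 CPM in skin Ebf2-, most of it in skin Ebf2- 3. Miat, a long non-coding RNA, was at 1.57, 0 and 1.29 CPM in skin Ebf2+ and 67.2, 8.70 and 13.2 CPM in skin Ebf2-. DESeq2 without a block gave adjusted p values of 0.000818 for Nrn1, 0.0498 for Camk2b and 0.0158 for Miat, and edgeR with the block passed none of these 6 genes.

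Chemokine and cytokine genes stood apart in both directions. Of 21 tested, 13 had a positive log2 fold change. Without overlap 6 stood higher and 2 lower, beside 2.93% and 3.75% of all genes, and in 3 of 3 pairs 10 were higher and 6 lower, beside 13.1% and 16.0%. The median was 0.62. Cxcl1, an attractant of neutrophils, came to 834, 2336 and 687 CPM in skin Ebf2+ and 250.2, 448 and 124 CPM in skin Ebf2-, with log2 differences of 1.73, 2.38 and 2.47 in the pairs and an adjusted p of 0.0933 with the block. Its relative Cxcl2 stood at 53.1, 85.9 and 21.8 CPM in skin Ebf2+ and 17.9, 9.85 and 0.565 CPM in skin Ebf2-. The cytokine Il6 was at 231, 319 and 112 CPM in skin Ebf2+ and 33.0, 45.8 and 55.3 CPM in skin Ebf2-. In all 3 every skin Ebf2+ library exceeded every skin Ebf2- library. Nfkbiz, a cofactor of NF-κB needed for Il6, measured 464, 670.1 and 370.5 CPM in skin Ebf2+ and 199, 183 and 135 CPM in skin Ebf2-. Irf1, an interferon-response factor, came to 299, 404 and 332 CPM in skin Ebf2+ and 191, 126 and 166 CPM in skin Ebf2-. The lower members were Cxcl9 and the cytokine Lif. Cxcl9, an attractant of T cells, had 0.121, 0 and 0.403 CPM in skin Ebf2+ and 10.1, 0.863 and 1.61 CPM in skin Ebf2-. Lif was at 1.09, 17.0 and 18.9 CPM in skin Ebf2+ and 37.1, 26.7 and 26.0 CPM in skin Ebf2-. Immediate early and heat shock genes, which enzyme digestion can induce, had smaller differences. Of 35 tested, 28 had a positive log2 fold change with a median of 0.45, or 0.00 without skin Ebf2+ 2. Without overlap 2 stood apart each way, beside 2.93% of all genes higher and 3.75% lower. In 3 of 3 pairs 16 were higher and 3 lower, beside 13.1% and 16.0% of all genes. The medians within pairs 1, 2 and 3 were 0.20, 0.35 and 0.27. Nr4a1 stood at 335, 1055 and 431 CPM in skin Ebf2+ and 272, 226 and 318 CPM in skin Ebf2-. Hspa1a, a heat shock gene with a near-identical copy that could share its reads, was at 1675, 984 and 1637 CPM in skin Ebf2+ and 2501, 1754 and 2786 CPM in skin Ebf2-. Their part in the chemokine values was not tested.

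Lists of dermal layers and mesenchymal lineages depended on the fit and on single libraries. The median was 0.01 for 17 papillary dermis genes, 0.24 for 21 reticular dermis and fascia genes and -0.10 for 18 dermal papilla and sheath genes. With a library left out these ran from -0.72 to 0.33, from -0.09 to 0.56 and from -0.32 to 0.18. With the replicate block they were -0.52, 0.04 and -0.74. Within pairs 1, 2 and 3 the papillary median was -0.99, -0.57 and -0.28, and 6 of its members were lower and 0 higher in 3 of 3 pairs, beside 16.0% and 13.1% of all genes. Apcdd1 and Rspo1, given above, are its members that stood lower without overlap. Procr, a receptor of the fascia list, measured 196, 265 and 127 CPM in skin Ebf2+ and 53.4, 63.8 and 68.6 CPM in skin Ebf2-. Of 17 adipocyte genes 1 stood apart each way, beside 2.93% of all genes higher and 3.75% lower. The higher was Fabp4 and the lower Pparg. Fabp4, a fatty acid carrier, came to 42.5, 144 and 37.1 CPM in skin Ebf2+ and 10.9, 31.3 and 1.94 CPM in skin Ebf2-. Pparg, the master regulator of fat cells, stood at 6.03, 6.26 and 5.48 CPM in skin Ebf2+ and 12.4, 9.13 and 7.11 CPM in skin Ebf2-. None of 15 brown and beige fat regulators stood apart, and their median was 0.33, or -0.10 without skin Ebf2- 3. Tbx15, a regulator of that list, was at 155, 237 and 85.9 CPM in skin Ebf2+ and 417, 312 and 179.7 CPM in skin Ebf2-. Osteoblast genes had a median of -1.26 over 14 tested, or -0.37 without skin Ebf2- 3. Without overlap 1 stood higher and 3 lower, beside 2.93% and 3.75% of all genes. Postn, periostin, measured 352, 291 and 337 CPM in skin Ebf2+ and 1403, 407 and 742 CPM in skin Ebf2-. Pth1r, the receptor of parathyroid hormone, came to 24.1, 0.0908 and 33.7 CPM in skin Ebf2+ and 97.5, 55.9 and 186 CPM in skin Ebf2-. Tnmd, the tendon protein tenomodulin, stood at 1.21, 0.0908 and 2.82 CPM in skin Ebf2+ and 32.2, 8.12 and 27.9 CPM in skin Ebf2-. These 3 stood lower without overlap. Dmp1, a matrix protein of osteocytes, ran the other way, at 22.1, 26.5 and 2.18 CPM in skin Ebf2+ and 0, 0.144 and 0.323 CPM in skin Ebf2-. Chondrocyte genes had a median of 1.58 over the 8 of 20 that could be tested, and 0.03 without skin Ebf2+ 2. Bcl11b, a transcription factor of skin and T cells, was at 0.121, 0.182 and 8.46 CPM in skin Ebf2+ and 50.6, 114 and 61.8 CPM in skin Ebf2-.

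**Figure D3:**
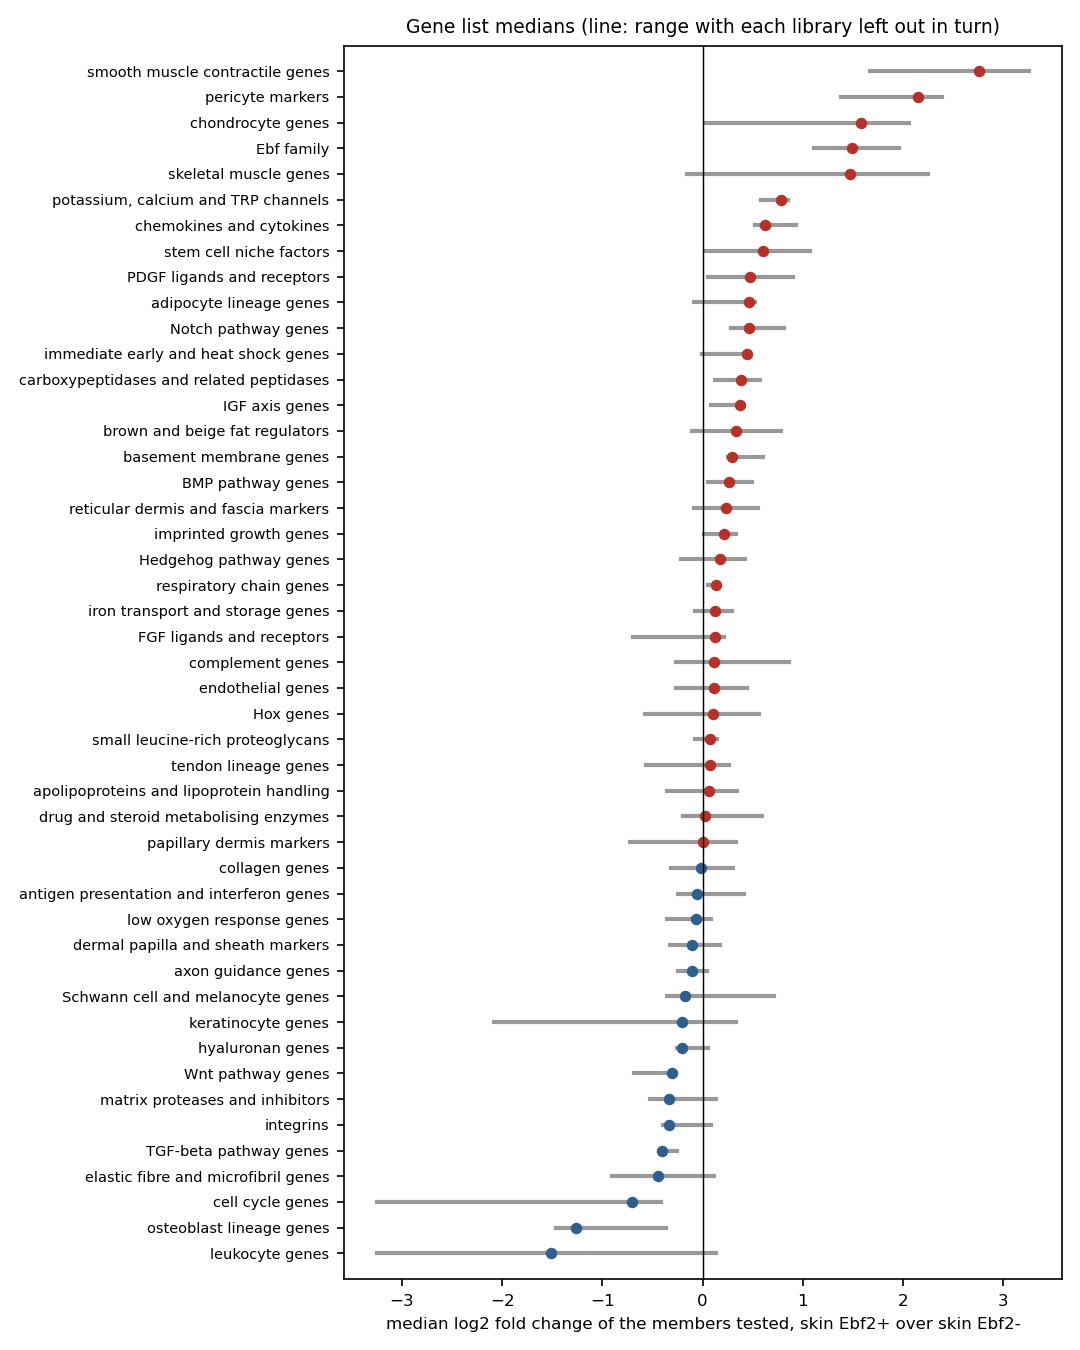
Median log2 fold change of skin Ebf2+ over skin Ebf2- for the members of 47 gene lists. Points are the values over 6 libraries and lines span the medians with each library left out in turn, so a line that crosses 0 changes sign with 1 library. The smooth muscle and pericyte lists lie at 2.76 and 2.15 with lines that stay above 1, and the leukocyte, keratinocyte and cell cycle lists are among those with the longest lines.

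Sums and medians of markers of other cell types moved with single libraries. Leukocyte genes summed to 3.62, 106 and 103 CPM in skin Ebf2+ and 63.0, 616 and 66.9 CPM in skin Ebf2-. Of 13 tested, 11 had a negative log2 fold change, with a median of -1.52, and 0.13 without skin Ebf2- 2. Without overlap 3 stood lower and 0 higher, beside 3.75% and 2.93% of all genes. Cd3g, a T cell gene, measured 1.33, 0 and 1.21 CPM in skin Ebf2+ and 0.610, 49.4 and 0.161 CPM in skin Ebf2-. Csf1r, the receptor of macrophage growth factor, came to 0, 0.182 and 1.45 CPM in skin Ebf2+ and 6.86, 4.31 and 31.0 CPM in skin Ebf2-. The high T cell value was that of skin Ebf2- 2, and the high macrophage value that of skin Ebf2- 3. Keratinocyte genes summed to 813, 108 and 1729.5 CPM in skin Ebf2+ and 1649.9, 535 and 977 CPM in skin Ebf2-, with a median of -0.21 that became 0.33 without skin Ebf2+ 2 and -2.08 without skin Ebf2+ 3. Krt14, a keratin of the basal epidermis, stood at 2.77, 0.363 and 275 CPM in skin Ebf2+ and 109, 29.3 and 171 CPM in skin Ebf2-. Endothelial genes summed to 579.8, 301 and 621 CPM in skin Ebf2+ and 436, 344 and 419 CPM in skin Ebf2-, with a median of 0.11 over 9 tested, or -0.26 without skin Ebf2+ 3. Esam, a junction protein that mural cells also express, was at 6.15, 50.5 and 40.4 CPM in skin Ebf2+ and 0, 0.0719 and 0.323 CPM in skin Ebf2-, and its groups did not overlap. Cell cycle genes had a median of -0.70 over 39 tested and were lower in pairs 1 and 2 (-1.60 and -1.78) and not in pair 3 (0.30). The median was -3.24 without skin Ebf2+ 3 and -2.49 with the block. Mki67, a marker of dividing cells, came to 7.60, 11.5 and 8.30 CPM in skin Ebf2+ and 169, 100.2 and 4.68 CPM in skin Ebf2-. The part of these cells in the values above was not tested.

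**Figure D4:**
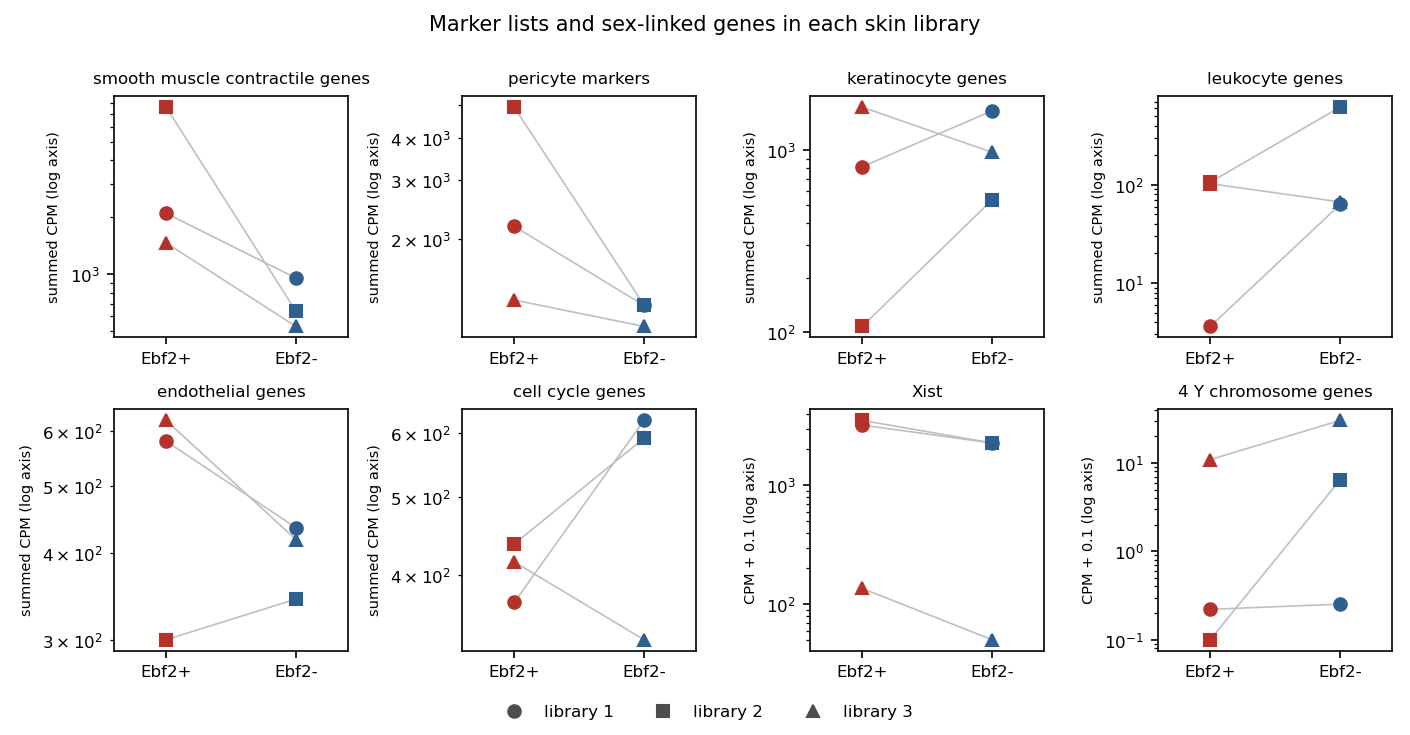
Summed CPM of 6 marker lists, and CPM plus 0.1 of Xist and of 4 Y chromosome genes, in each library on log axes, with skin Ebf2+ left and skin Ebf2- right. Shapes give library numbers and lines join equal numbers. Smooth muscle and pericyte sums peak in skin Ebf2+ 2, leukocyte genes in skin Ebf2- 2, and libraries 3 share low Xist and high Y values.

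Of 49 respiratory chain genes, 30 were positive with a median of 0.14. In 3 of 3 pairs 14 were higher and 1 lower, beside 13.1% and 16.0% of all genes, and without overlap 4 stood higher and 1 lower, beside 2.93% and 3.75%. Cox8a, a subunit of cytochrome oxidase, stood at 127, 137 and 87.8 CPM in skin Ebf2+ and 62.1, 74.3 and 68.2 CPM in skin Ebf2-. The medians of complement genes (0.12 over 20), antigen presentation and interferon genes (-0.06 over 34), Hox genes (0.10 over 15), imprinted growth genes (0.21 over 16), apolipoproteins (0.07 over 17), proteoglycans (0.08 over 13), hyaluronan genes (-0.21 over 12), matrix proteases (-0.33 over 31) and peptidases (0.38 over 14) lay within 0.4 of 0.01, the value of all genes. With a library left out they ran from -0.57 (Hox genes) to 0.86 (complement genes). Other lists lay further from it. The median was 1.47 for the 6 skeletal muscle genes tested, 0.60 for 16 stem cell niche factors, 0.47 for 6 PDGF genes and 0.46 for 22 Notch genes. With a library left out these ran from -0.16 to 2.25, from 0.02 to 1.08, from 0.05 to 0.90 and from 0.28 to 0.81. In the niche list 4 stood higher without overlap and 0 lower, beside 2.93% and 3.75% of all genes. Nes, the intermediate filament nestin, was at 5.79, 4.54 and 9.75 CPM in skin Ebf2+ and 0, 0 and 1.05 CPM in skin Ebf2-, and Foxc1, a forkhead transcription factor, had 8.20, 14.7 and 8.94 CPM in skin Ebf2+ and 0.839, 4.67 and 1.29 CPM in skin Ebf2-. Of 31 matrix protease genes 2 stood higher and 4 lower without overlap, beside 2.93% and 3.75% of all genes. Of 12 hyaluronan genes 1 stood apart each way, and of 20 complement genes 0 stood higher and 1 lower. Mmp27, a matrix protease, was at 10.9, 7.62 and 17.0 CPM in skin Ebf2+ and 47.7, 30.6 and 103 CPM in skin Ebf2-. Adamts4, an enzyme that cuts aggrecan and versican, measured 185, 340.4 and 68.5 CPM in skin Ebf2+ and 29.7, 26.2 and 47.7 CPM in skin Ebf2-. Mmp27 stood lower and Adamts4 higher without overlap. Has1, a hyaluronan synthase, came to 241, 194 and 216 CPM in skin Ebf2+ and 319, 328 and 674 CPM in skin Ebf2-. Masp1, a protease of the complement lectin pathway, stood at 9.29, 0 and 17.2 CPM in skin Ebf2+ and 27.4, 27.2 and 67.7 CPM in skin Ebf2-. Both stood lower in every skin Ebf2+ library.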

How the data were processed

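RNA of sorted cells was sequenced in 10 libraries, of which the 3 of skin Ebf2+ cells and the 3 of skin Ebf2- cells were used, and bone marrow libraries were not analysed here. The deposited values are raw counts of reads per gene for 14995 genes, named by Entrez number. Per the submitters' processing notes, reads were checked with FastQC 0.11.8 and MultiQC 1.7, aligned to GRCm38 with STAR 2.6.1d and counted with featureCounts of Subread, and DESeq2 was used. The authors' deposited comparison columns hold a log2 fold change and an adjusted p-value per gene, used here for counts of calls. Normalized counts in 10 further columns were not used. Whether counting used strand is not stated, and a gene that overlaps another, on either strand, may hold some of its neighbour's reads. Every gene listed has a count in at least 3 libraries. Symbols that a spreadsheet had turned into dates were restored for 18 genes, 251 genes have no symbol, and 14522 were found in the RefSeq table of GRCm38.p6.

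The test across genes was that of edgeR 4.0.16 in R 4.3.3 (quasi-likelihood test, two-sided, TMM scaling, filterByExpr, Benjamini-Hochberg adjustment over all 13477 genes tested, threshold 0.05), with 3 libraries a group and no covariate. SE is that of the log2 fold change implied by the F value. The replicate number was a block in a second fit. Deviations from the group means correlated at 0.192, 0.235 and 0.624 between libraries of equal number 1, 2 and 3. That is above 0.1 in all 3, and the numbers were treated as pairs in the block fit. The libraries numbered 1 and 2 also correlated across numbers, at 0.156 and 0.159. These correlations therefore do not show that equal numbers 1 or 2 are the same mice. The 4 Y chromosome genes had 0 reads in skin Ebf2+ 2 and 88 in skin Ebf2- 2. The 8 genes that passed with the block depend on this pairing. DESeq2 1.42.0, limma 3.58.1 (voom), other scalings, filters, a fit with all 10 libraries and libraries or pairs left out were alternatives, 21 in all. Log2 differences within pairs used log2(CPM + 1). Bounds on folds against groups with no read used a floor of 3 counts over the group. Floors cover counting error only. The labels do not say that libraries of a group are from different mice beyond the 3 mice of the design text, so p-values measure the spread between these libraries. The fitting scripts were tested on simulated data.

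Genes and 47 gene lists were chosen with earlier results of these data known. Named genes are the sort genes, every gene called by edgeR with or without the block, the 15 with the largest fold change each way among genes without overlap, with a mean of at least 10 CPM in the higher group and an unadjusted p below 0.05, and up to 3 members each way of a list without overlap. Named beyond that rule, after their values were seen, were Acta2, Mylk, Tpm2, Myl9, Abcc9, Kcnj8, Vtn, Steap4, Pdgfrb, Cspg4, Rgs16, Adra2a, Cacna1c, Nr2f2, Ano1, Vwa1, Matn2, Sox8, Ebf1, Ebf3, Cyp26b1, Bcl11b, Gucy1a1, Pde5a, Htr7, Krt14, Cd3g, Mki67, Nfkbiz, Lmcd1, Vcl, Rergl, Ldb3, Chl1 and Myocd.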

Additional observations from a re-analysis of the deposited data

How the results depend on the processing

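The count of genes called rested on the fit. It was 0 under edgeR without a block with every scaling and filter tried, with the fit of all 10 libraries, with each library left out (0 to 0) and with both libraries numbered 3 left out, and 0 under limma-voom. DESeq2 without a block called 116. With the replicate block the counts were 8 for edgeR, 19 for limma-voom and 369 for DESeq2. With the block and a pair left out, edgeR called between 1 and 2. The cause of these differences was not tested. The split of DESeq2 calls was 88 higher and 28 lower without the block and 174 higher and 195 lower with it. Among genes with an unadjusted p below 0.05, 237 were higher and 106 lower in the edgeR fit, 187 and 226 under limma-voom, and 444 and 1067 without skin Ebf2+ 3. The median of all genes was -0.15 with the block and -0.18 under limma-voom, beside 0.01.

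Of 141 named genes with a test, 3 changed the sign of their log2 fold change under any of the 21 alternatives. An adjusted p of 0.05 was passed under at least 1 by 103, against 0 in edgeR without a block. Many of these genes were named because their groups did not overlap, or after their values were seen. Groups without overlap keep their direction when a library is left out, so these counts do not measure stability across all genes. The same counts over all genes tested were not made. The log2 fold change of Cd3g became 0.036 with the replicate block, 0.18 under DESeq2 with the block and 1.90 with the block and pair 2 left out, and ran from -4.86 to 1.11 with a library left out, positive without skin Ebf2- 2. That of Krt14 ran from -6.01 to 0.45 with a library left out and was positive without skin Ebf2+ 1, skin Ebf2+ 2 or skin Ebf2- 3. That of Ebf3 ran from -0.064 to 2.01 and was negative without skin Ebf2+ 1. None of these 3 genes had passed a test of edgeR. With 3 libraries a group, low genes rest on few reads, and levels below 0.1 CPM correspond to single reads.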

Other observations

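No read was counted in skin Ebf2- for 16 tested genes and none in skin Ebf2+ for 10. Among the 16, 6 averaged at least 10 CPM in skin Ebf2+. Gcg, the precursor of glucagon, had 10.5, 59.2 and 24.8 CPM in skin Ebf2+ and 0 reads in skin Ebf2-. Tacr3, the receptor of neurokinin B, had 1.57, 103 and 2.42 CPM in skin Ebf2+ and 0 reads in skin Ebf2-, most of it in skin Ebf2+ 2. Olfr78, an olfactory receptor also known from vessel walls, had 16.2, 16.2 and 2.34 CPM in skin Ebf2+ and 0 reads in skin Ebf2-. Olfr558, another such receptor, with 1 read in skin Ebf2-, stood at 15.2, 54.5 and 5.80 CPM in skin Ebf2+ and 0, 0.0719 and 0 CPM in skin Ebf2-. Pcp4l1, a small calmodulin-related protein of neurons, had 33.5, 71.9 and 12.2 CPM in skin Ebf2+ and 0 reads in skin Ebf2-, at least 515-fold higher. H2-M9, a non-classical MHC gene, had 4.46, 22.4 and 28.7 CPM in skin Ebf2+ and 0 reads in skin Ebf2-. Map3k7cl had 73.8, 16.9 and 1.29 CPM in skin Ebf2+ and 0 reads in skin Ebf2-. In the other direction 2 genes averaged at least 10 CPM in skin Ebf2- with no read in skin Ebf2+. They were Grem1 and Zfp536, a zinc finger protein of neurons, which had 0 reads in skin Ebf2+ and 11.9, 2.37 and 18.0 CPM in skin Ebf2-. Coch, the inner ear matrix protein cochlin, had some reads in both groups and stood at 0, 0.0908 and 1.45 CPM in skin Ebf2+ and 96.7, 6.76 and 35.2 CPM in skin Ebf2-. The fold changes fitted to genes with no read in a group depend on the prior count.

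Genes that stood higher without overlap had their highest skin Ebf2+ level in library 2 more often than in the others. That was so for 231 of the 395 (58.5%), beside 31.2% of all genes tested, and for 67 of the 88 genes called higher by DESeq2 (76.1%). Of the 505 genes that stood lower, 371 (73.5%) had their highest skin Ebf2+ level in library 3, beside 40.5% of all genes. Over the 1000 genes that varied most, principal component 1 (52.1% of the variance) placed skin Ebf2+ 2 at 113 and skin Ebf2+ 1 at 50.8, with skin Ebf2+ 3 at -49.1 and the skin Ebf2- libraries between -68.3 and -18.3.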
